A study of Rattus norvegicus with 36 samples.

Results

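Rat skeletal muscle collected 1 h after resisted contractions was measured in 2 RNA fractions, total RNA and polysomal RNA, and the difference between them is described here gene by gene. The comparison holds 8 of the 36 arrays of the study: 4 of polysomal RNA, titled Exercise-1hPolysome, and 4 of total RNA, titled Exercise-1h. They were chosen by their titles alone. Each fraction has numbers 1 and 2 with an array a and an array b, and the 2 arrays of a number were averaged on the log2 scale, so that n = 2 per fraction. The muscle is labelled only "ta", and the labels used here state no strain, sex or age and not how the contractions were produced. They do not say whether numbers are separate rats or whether arrays a and b are separate muscles. Every p-value uses 1 spread per probe set, shared over all 6 sets of arrays in the study. The 1 h samples give only part of that spread, and it may be purely technical. Further sets of arrays enter below: total and polysomal RNA at 6 h (8 arrays each, numbers 1 to 4), 8 arrays titled Muscle-Polysome, and 4 titled Muscle-1hr-Polysome whose description does not mention polyribosomes. The last 2 sets have no contractions in their labels.

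A messenger RNA that is being translated carries several ribosomes at once, and such polysomes sediment faster than free messenger RNA in a density gradient. Comparing a transcript's share of polysomal RNA with its share of total RNA therefore gives a measure of how heavily it is loaded with ribosomes. In muscle, resisted contractions raise protein synthesis within hours through the mTOR pathway, and messages that begin with a pyrimidine tract, such as those of ribosomal proteins, are the classic targets of that pathway. The quantity used throughout is the log2 signal in polysomal RNA minus the log2 signal in total RNA, called the loading difference. Every array was scaled to the same overall signal by the authors, so a loading difference is relative to the other transcripts of the same fraction and says nothing of how much RNA was on polysomes in all.

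The controls for RNA integrity differed between the fractions for beta-actin and GAPDH, and the hexokinase control was too dim to be read. The ratio of the 3' to the 5' beta-actin control signal was 1.22 to 1.62 on the total arrays and 2.003 to 4.28 on the polysomal arrays, and the same ratio for GAPDH was 0.53 to 0.905 and 1.15 to 1.30. Neither pair of ranges overlapped. For the dimmer hexokinase control the ratio was 0.22 to 1.42 in total RNA and 0.143 to 0.592 in polysomal RNA, which overlap and lie the other way. The part of RNA integrity in the loading differences was not tested, and its values are given beside them. For beta-actin itself the loading difference was -0.74 at the 5' end, -1.27 in the middle and 0.39 at the 3' end. The 5' value was -0.12 in number 1 and -1.37 in number 2, where polysomal array 2a read 1419 against 5271 to 9151 on the other polysomal arrays. Array 2a of total RNA read 5.91 for the middle of GAPDH against 17492 to 21864 on the other total arrays, and 6175 for its 5' end against 18619 to 23884. Array 2a of polysomal RNA read 54.2 for Atp2a2 against 2543 to 4536 on the other polysomal arrays. Single arrays a and b of a number correlated at 0.946 to 0.962 over probe sets. With the 2 arrays of a number averaged, numbers 1 and 2 correlated at 0.971 in total RNA and 0.950 in polysomal RNA. Total with polysomal averages correlated at 0.904 to 0.928. Skeletal muscle markers, 15 of 18 listed genes tested, had a summed signal of 142410 to 316841 in total RNA and 196094 to 341339 in polysomal RNA.

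At 1 h, 26 of 6707 probe sets passed the test, which is 0.388% of those tested. Of these, 13 were higher (0.194%) and 13 lower (0.194%) in polysomal RNA, and on all 26 the 4 polysomal arrays lay entirely above or entirely below the 4 total arrays. Over all probe sets 8.07% separated upwards in this way and 12.2% downwards. The test was limma's moderated test over all 6 groups with Benjamini-Hochberg adjustment at 0.05, and 1061 probe sets (15.8%) had an unadjusted p under 0.05, 6.32% higher and 9.5% lower. With each gene read from its brightest probe set, 7 of 3903 genes were higher (0.179%) and 6 were lower (0.154%), 0.333% in all. With only the 2 groups compared in the model 45 probe sets passed, 3 of the 26 among them, and 0 of the 13 genes did. Leaving out a number changed the calls. Without total number 1 there were 15, of which 4 were among the 26, and without total number 2 there was 1, not among them. Without polysomal number 1 there were 85, with 16 of the 26, and without polysomal number 2 there was 1, not among them. Without polysomal number 1, 9 of the 13 genes still passed, without total number 1 only Chrna1 did, and without either number 2 none did. Without array 1a of total RNA 42 probe sets passed, and without array 1a of polysomal RNA 69. Without array 2a of total RNA there were 30, and without array 2a of polysomal RNA 34. A common 75th percentile in place of the authors' scaling gave 18 higher and 10 lower. With the 3' to 5' beta-actin ratio as a covariate 60 probe sets passed, 24 of the 26 among them. Its slope is fitted within the groups, where number 3 of total RNA at 6 h stood apart. That number had ratios of 9.01 and 11.5, against 1.007 to 1.58 on the other 6 h total arrays. Since the ratio did not overlap between the fractions at 1 h, the covariate is no test of the part of RNA integrity.

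**Figure D1:**
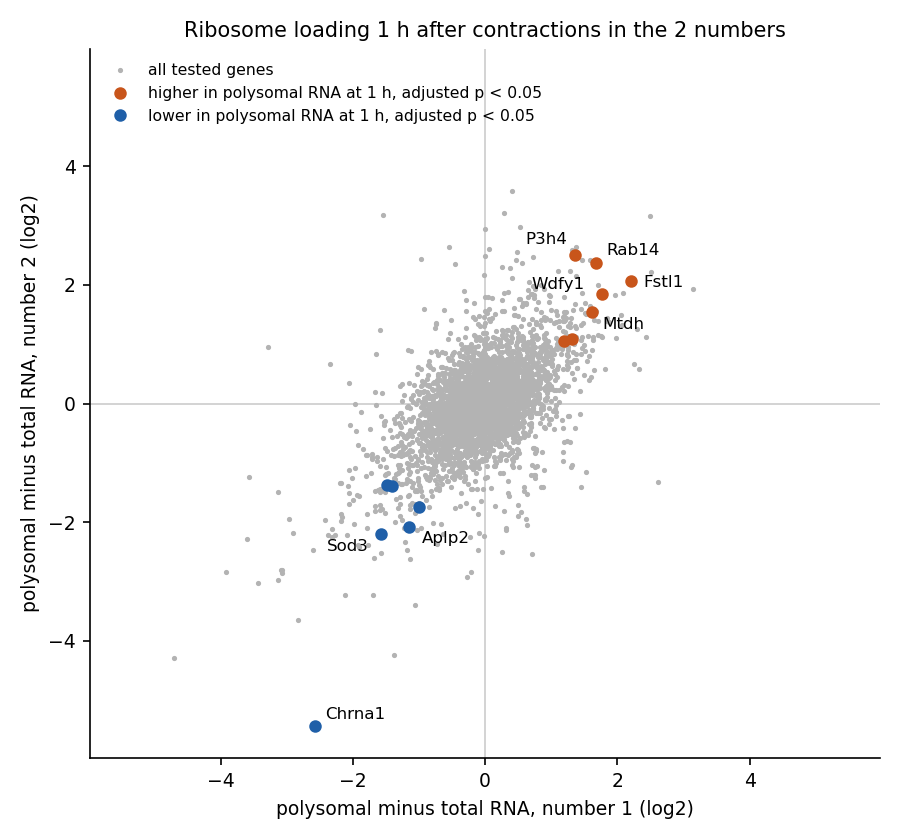
Loading difference of each of the 3903 tested genes at 1 h (polysomal minus total RNA, log2) in number 1 on the horizontal axis and in number 2 on the vertical axis. Orange points are the 7 genes that passed the test as higher in polysomal RNA and blue points the 6 that passed as lower; Chrna1 lies lowest, at -2.58 and -5.43.

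The plot of the 2 numbers shows how far the loading differences recur. Over genes, number 1 and number 2 correlated at r = 0.56 (Spearman's rho 0.48), which describes genes of the same 4 replicates and carries no test. Both numbers were above 0 for 1038 genes (26.6%) and below 0 for 1332 (34.1%). The middle 90% of genes lay between -1.01 and 0.94, the median was -0.04, and the median standard error of a probe set was 0.34.

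Genes higher in polysomal RNA were led by Fstl1, which encodes a secreted glycoprotein of the follistatin-like family. Its signal was 559, 1457, 1628 and 1319 on the total arrays (1a, 1b, 2a, 2b) and 3457, 5007, 7171 and 5218 on the polysomal arrays. Every polysomal array was above every total array, and the loading difference was 2.13 ± 0.33 (SE; 4.39-fold, adjusted p = 0.0224, limma). A second, dimmer probe set of Fstl1 gave -0.40 ± 0.95, so the difference rests on the brighter one.

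Rab14, a small GTPase that moves vesicles between Golgi and endosomes, had signals of 280, 273, 255 and 297 in total RNA and 830, 933, 1388 and 1456 in polysomal RNA. Both polysomal arrays of number 2 exceeded those of number 1, and none came near the total arrays. The loading difference was 2.02 ± 0.35 (4.06-fold, adjusted p = 0.0343). Rala, a small GTPase of exocytosis, read 921, 830, 918 and 979 in total RNA and 1967, 2044, 1874 and 2068 in polysomal RNA. The spread within each fraction was small, and the difference was 1.13 ± 0.22 (2.18-fold, adjusted p = 0.0434). Among 42 tested small GTPases these 2 were the ones that passed. In that list polysomal arrays lay above total arrays in 5 genes and below them in 7, against 8.97% and 10% of all genes. The list ranged from -3.37 to 2.02, with a median 0.08 above all genes. Ralb, the paralogue of Rala, had 1.21 and did not pass.

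P3h4 encodes a protein of the endoplasmic reticulum needed for hydroxylation of collagen lysines. Its total signals were 97.4, 212, 216 and 88.7, of which 2 were below the floor of 130 that was set under all values, and its polysomal signals were 444, 407, 1010 and 894. The loading difference was 1.93 ± 0.35 (3.82-fold, adjusted p = 0.0343), and its other probe set also passed, at 1.59 ± 0.31. Wdfy1, an adaptor protein of early endosomes, read 396, 475, 647 and 482 in total RNA and 1264, 1736, 1995 and 2038 in polysomal RNA. The groups did not overlap, and the difference was 1.81 ± 0.35 (3.51-fold, adjusted p = 0.0423).

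Mtdh, an RNA-binding protein of the endoplasmic reticulum and nuclear membranes, read 2610, 2949, 2436 and 2708 in total RNA and 8636, 8329, 7194 and 7733 in polysomal RNA. Ppp3ca, the catalytic subunit of calcineurin, the calcium-activated phosphatase that drives slow-fibre gene programmes, read 3089, 2864, 3803 and 2946 in total RNA and 6746, 8135, 6403 and 7880 in polysomal RNA. Arrays of a fraction lay close together for both genes. The loading differences were 1.58 ± 0.31 for Mtdh (2.98-fold, adjusted p = 0.0433) and 1.20 ± 0.23 for Ppp3ca (2.30-fold, adjusted p = 0.0423).

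**Figure D2:**
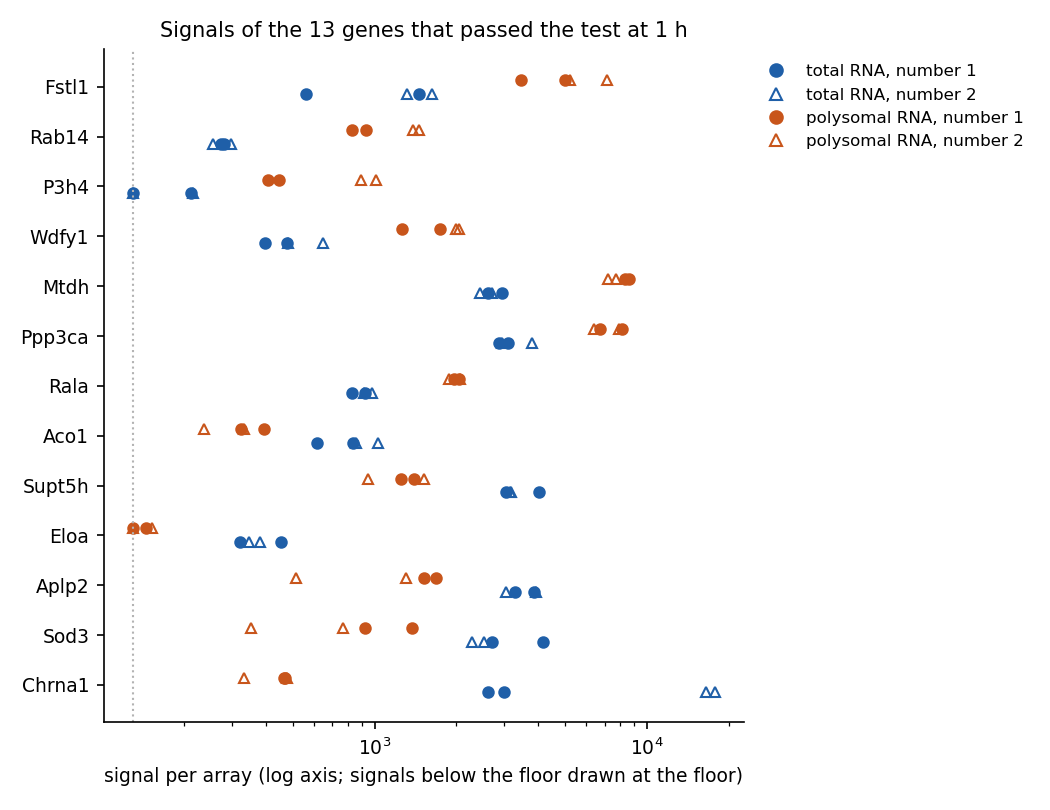
Signal on each of the 8 arrays (log axis) for the 13 genes that passed the test at 1 h, with total RNA in blue, polysomal RNA in orange, number 1 as filled circles and number 2 as open triangles; the dotted line is the floor of 130. In every gene the polysomal and total arrays stand apart, and the 2 numbers of total RNA differ most in Chrna1.

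Genes lower in polysomal RNA were led by Chrna1, the alpha subunit of the muscle acetylcholine receptor at the neuromuscular junction. Its signal on the total arrays was 2981, 2604, 17801 and 16455, and on the polysomal arrays 469, 465, 476 and 332. Number 2 of total RNA was far above number 1, and the polysomal arrays were all below both. The loading difference was -4.003 ± 0.63 (16.03-fold lower, adjusted p = 0.0224), with -2.58 in number 1 and -5.43 in number 2. The call was lost without number 2 of total RNA (-2.69, adjusted p = 0.181) and without number 2 of polysomal RNA (-3.89, adjusted p = 0.165).

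In the other 4 sets of arrays Chrna1 stayed near the 1 h polysomal level. It ran from 381 to 774 in total RNA at 6 h, from 401 to 997 in polysomal RNA at 6 h, from 404 to 654 on the Muscle-1hr-Polysome arrays and from 379 to 954 on the Muscle-Polysome arrays. The 4 total arrays at 1 h were therefore the only ones of 36 above 1000. The delta subunit, Chrnd, had the same pattern of arrays, with 934, 785, 5016 and 3982 in total RNA at 1 h and 147, 263, 416 and 546 in polysomal RNA. Its loading difference of -2.68 ± 0.57 did not pass (adjusted p = 0.0611). The remaining subunits did not pass either, with -1.38 for Chrnb1, -1.43 for Chrne and -0.65 for Chrng.

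Subunit genes of this receptor are known targets of the MyoD family of transcription factors, which bind the letters CANNTG (the E-box), often as CAGCTG. The promoter of Chrna1 is shown because this gene had the lowest loading difference of those that passed, and its total signal at 1 h stood above all other sets of arrays. It is taken from RefSeq on GRCr8, chr3:78877354-78877603, minus strand, and spans the 250 bases before the annotated start, with CAGCTG in capitals.
Chrna1: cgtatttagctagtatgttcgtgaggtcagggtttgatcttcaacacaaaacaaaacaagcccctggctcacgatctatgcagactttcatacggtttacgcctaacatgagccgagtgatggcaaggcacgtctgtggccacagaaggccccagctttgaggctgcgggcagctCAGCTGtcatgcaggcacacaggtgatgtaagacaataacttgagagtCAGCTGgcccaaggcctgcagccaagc
The letters CAGCTG, which read the same on both strands, occur 2 times here. At least 1 copy is in 11.9% of 27457 promoter windows of that length, 2 or more in 1.04%, and CANNTG, which includes it, in 65.2%. In the same window Chrnb1, Chrne and Chrng have 1 CAGCTG each and Chrnd has none, with 1 CANNTG. Myog and Myh3, described below, have no CAGCTG either, with 2 and 1 CANNTG. These are matches of letters, not measured binding.

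Myh3 encodes the embryonic myosin heavy chain, and both of its dimmer probe sets passed. The first read 1698, 1395, 3959 and 4196 in total RNA and 234, 183, 276 and 151 in polysomal RNA, a loading difference of -3.61 ± 0.47 (adjusted p = 0.00474). The second read 324, 447, 818 and 1097 in total RNA, while its polysomal arrays were all below the floor, which makes its 4.63-fold difference a lower limit (adjusted p = 0.0281). The brightest probe set of Myh3 gave -1.58 and did not pass (adjusted p = 0.104), and its signal in total RNA, 6477 to 12569 at 1 h, was matched by number 3 of total RNA at 6 h (11148 and 10275). As with Chrna1 and Chrnd, number 2 of total RNA was above number 1 on all 3 probe sets. Myog, a transcription factor of muscle differentiation, was also highest in total number 2 (2936 and 3206, against 1044 and 1248 in number 1), with a loading difference of -2.31 that did not pass (adjusted p = 0.319).

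**Figure D3:**
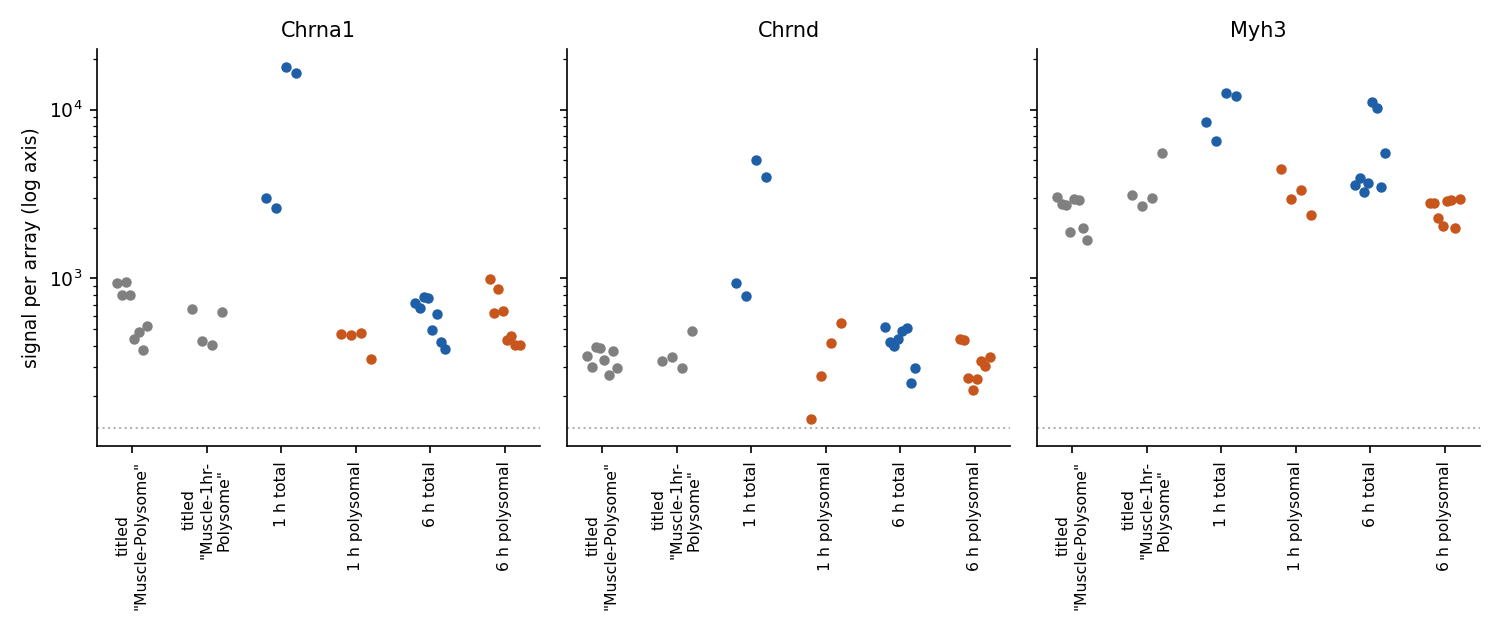
Signal per array (log axis) of the brightest probe set of Chrna1, Chrnd and Myh3 in all 6 sets of arrays; blue is total RNA, orange polysomal RNA, and grey the 2 sets with no contractions in their labels. The 4 arrays of total RNA at 1 h lie above all other arrays for Chrna1 and Chrnd, and for Myh3 some arrays of total RNA at 6 h reach the same range.

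Both Supt5h and Eloa, which were lower, act in transcription elongation. Supt5h, a subunit of the elongation factor DSIF, read 4009, 3041, 3134 and 3175 in total RNA and 1391, 1255, 1526 and 950 in polysomal RNA. Eloa, the active subunit of elongin, read 454, 321, 345 and 380 in total RNA and 144, 114, 153 and 83.0 in polysomal RNA, so that 2 of its polysomal arrays were below the floor. The differences were -1.40 ± 0.26 for Supt5h (adjusted p = 0.0343) and -1.42 ± 0.27 for Eloa (adjusted p = 0.0366). Other probe sets of Supt5h gave 0.95 ± 0.27 and -0.67 ± 0.34, neither past the threshold.

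Sod3, the extracellular superoxide dismutase, read 2692, 4172, 2516 and 2274 in total RNA and 1375, 919, 768 and 351 in polysomal RNA. Its loading difference was -1.89 ± 0.35 (3.71-fold lower, adjusted p = 0.0344), and its second probe set gave -1.46 ± 0.39 and did not pass. It was the 1 member of 30 tested antioxidant genes to pass, and the median of that list was 0.08 above the median of all genes. Aplp2, a membrane protein related to the amyloid precursor, read 3851, 3275, 3919 and 3042 in total RNA and 1525, 1682, 517 and 1304 in polysomal RNA. Its difference was -1.61 ± 0.32 (adjusted p = 0.0423). Aco1, the cytosolic aconitase that also binds iron-responsive elements as iron regulatory protein, read 613, 831, 1032 and 852 in total RNA and 392, 324, 235 and 333 in polysomal RNA. Its difference was -1.37 ± 0.28 (adjusted p = 0.0451), the value nearest the threshold among the 13 genes, and 8 of 23 alternative analyses kept it.

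The other 8 probe sets with a gene symbol that passed belong to named genes whose brightest probe set did not, or are second probe sets of a gene above. Beside the 3 of Myh3 and P3h4 they were Ndufc1 (1.76), Sparc (1.79) and Arpp21 (2.19), higher in polysomal RNA, and Gstm1 (-1.43) and Sec31a (-1.38), lower. Sparc, a collagen-binding matrix protein, had probe sets on both sides: the set that passed read 2814 to 4031 in total RNA and 10808 to 13695 in polysomal RNA, while the brightest set gave -0.70 and the lowest -2.26. The remaining 5 probe sets that passed have no single gene symbol. Across the 1152 genes with more than 1 tested probe set, all sets of a gene pointed 1 way in 55.6%, and the brightest and second sets correlated at r = 0.38. In 8 genes, Ghr, Hsp90b1, Igfbp5, Mapkapk3, P4hb, Sparc, Srpk2 and Tpm1, 1 probe set was above 1 and another below -1.

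Genes just outside the threshold, taken by their p among those with signal above the floor in both fractions, are given as values. On the high side they were Fam162a (1.52), Ndufc1 (1.29), Fam32a (1.08), Ddrgk1 (0.79), Ppp1r16b (1.52), Rpl17 (1.63), Add3 (1.37) and C1r (1.41), with adjusted p from 0.0661 to 0.0706. On the low side they were F3 (-0.81), Myh7 (-1.82), Ralgapa1 (-1.12), Chrnd, Atp2a2 (-2.80), Pfkfb3 (-1.25), Trpc1 (-1.47), Srebf1 (-1.88) and Pik3c3 (-0.66), with adjusted p from 0.0531 to 0.0699. All 17 had non-overlapping arrays. Over all genes the 4 polysomal arrays lay above the 4 total arrays in 350 (8.97%) and below them in 392 (10%), and these shares are the background for the gene lists that follow.

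Messages of the nuclear-encoded respiratory chain, the membrane complexes of oxidative phosphorylation, had a median 0.63 above that of all genes. None of the 53 tested genes passed. The polysomal arrays lay above all total arrays in 26 and below them in 3, and 44 were above 0 in both numbers. Before the median of all genes was subtracted, the list stood at 0.63 in number 1 and 0.50 in number 2. The highest member was the epsilon subunit of the ATP synthase, Atp5f1e, at 1.76, from 0.53 in number 1 and 2.98 in number 2. Next came Ndufa6 (1.36) and Ndufc1 (1.29) of complex I and Cox6a1 (1.25) of complex IV. Ndufs4 of complex I (1.14) read 4307, 5706, 5446 and 5074 in total RNA and 12189, 11034, 12346 and 9592 in polysomal RNA. Of the 53 genes 8 were below 0, 5 of them in both numbers. The lowest were Ndufs1 of complex I (-2.96), the flavoprotein Sdha of complex II (-1.46), Uqcrc2 of complex III (-0.87) and Etfa, an electron carrier of fatty acid oxidation (-0.63). All polysomal arrays of Ndufs1 were below the floor, so its difference is a limit of at least 7.77-fold. Quantile normalization brought the median of the list to 0.30, and the beta-actin covariate left it at 0.53.

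Cytosolic ribosomal proteins had a median 0.41 above all genes, with polysomal arrays above total arrays in 13 of 38 and below them in none. None passed. Rpl17, a component of the large subunit, read 299, 313, 455 and 416 in total RNA and 1479, 847, 1181 and 1085 in polysomal RNA, and Rpl35a read 3576, 4879, 4817 and 4855 against 9224, 8422, 9948 and 10934. Both had adjusted p above the threshold (0.0703 and 0.0858). At the other end Rpl39 had -1.53 and Rps10 -1.24, and there array 2a of polysomal RNA was alone: it read 280 for Rpl39 and 424 for Rps10, where the other polysomal arrays read 6275 to 6683 and 3071 to 4229. The median of the list was 0.15 with quantile normalization and 0.21 without total number 1, and 0.50 with the beta-actin covariate.

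Ribosomal protein messages start with a C followed by a run of pyrimidines, the tract through which mTOR signalling controls their loading. The starts of 4 of them are shown to set that feature beside the loading differences. Each is 30 bases of RefSeq sequence on GRCr8, 10 before the annotated start and 20 from it. The matching tract is in capitals, counted from a C within 5 bases of that start. They lie at chr11:81235002-81235031 (minus strand) for Rpl35a, chr16:96507-96536 (plus) for Rps24, chr20:5700725-5700754 (minus) for Rps10 and chrX:121195877-121195906 (minus) for Rpl39.
Rpl35a: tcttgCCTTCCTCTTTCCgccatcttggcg
Rps24: ggtcctCTTTTCCTCCTTTacagctcgggc
Rps10: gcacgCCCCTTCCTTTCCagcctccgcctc
Rpl39: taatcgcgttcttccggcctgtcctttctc
Rpl35a (1.09) and Rps24 (0.99) have a marked tract of 13 bases, as has Rps10 (-1.24). In Rps24 the bases just before the capitals, tcct, are pyrimidines too, so its whole run is longer than the marked part. In Rpl39 (-1.53) no tract as long as the search required begins within 5 bases of the annotated start. At that start the Rpl39 window does read cttcc, a C followed by pyrimidines, but this run is shorter than the search required. The window also ends in a C followed by pyrimidines, further downstream than the search allowed. The motif searched, on the coding strand, was a C within 5 bases of the annotated start followed by at least 5 bases that are C or T. It was found in 9.75% of all 27457 promoter entries and in 308 of the 3196 tested genes that have one (9.64%). Those 308 genes had a median loading difference of -0.01 and the others -0.04. Of 34 ribosomal protein genes with an entry, 16 with a tract had a median of 0.44 and 18 without one 0.30, and the 292 tract genes outside the list had -0.02. Annotated starts can be off by more than 5 bases, so a missing match says only that no such letters begin within 5 bases of that start.

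Translation factors were near the median of all genes, 0.09 below it, with polysomal arrays below total arrays in 5 of 21 and above in none. Eef1a2, the elongation factor isoform of adult muscle, read 19367, 22989, 15590 and 21424 in total RNA and 9258, 8148, 6008 and 6286 in polysomal RNA, a difference of -1.43 ± 0.44 that did not pass (adjusted p = 0.14). Rps6kb1, the S6 kinase, had -0.78, the cap-binding protein Eif4e -0.49 and its inhibitor Eif4ebp1 -0.56. None of the 21 passed. Rack1, a ribosome-bound scaffold, read 10144, 9226, 253 and 6619 in polysomal RNA, and its difference of -0.91 turned to 0.27 without array 2a. Vim, an intermediate filament message listed for its pyrimidine tract, had 1.28, and 8 genes of that list had a median of 0.10 above all genes, which turned to -0.45 without array 1b of polysomal RNA.

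Enzymes of the citrate cycle and of fatty acid oxidation, the mitochondrial matrix pathways, had a median of -0.46 relative to all genes. None of 27 passed, and the polysomal arrays lay below the total arrays in 13 and above them in 2. Citrate synthase (Cs) had -2.25, the trifunctional protein subunit Hadhb -2.22, the carnitine palmitoyltransferases Cpt2 and Cpt1b -1.33 and -1.15, and Dlat of pyruvate dehydrogenase -1.26. Dlat read 9281, 8267, 7282 and 6638 in total RNA and 4201, 3490, 2972 and 2571 in polysomal RNA. Suclg1 (0.75) and Eci1 (0.61) were the 2 high members. With the beta-actin covariate the median came to -0.17 and with polysomal number 2 left out to -0.31. At 6 h the same list had a median of 0.14 above all genes, with 1 member lower and none higher by the test.

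Glycolysis and glycogen genes ranged from -4.50 to 1.26 over 26 genes, with none past the threshold and a median of -0.27 relative to all genes, which was -0.044 without polysomal number 2. Gpd1, the glycerol 3-phosphate dehydrogenase of the cytosol, read 4225, 3046, 2437 and 2632 in total RNA and 145, 118, 82.4 and 99.1 in polysomal RNA. The fractions were far apart, with 3 polysomal arrays below the floor, and the adjusted p was 0.118. Its signal in total RNA at 6 h ran from 101 to 5106, and the model shares 1 spread over all groups. Phka1, a regulatory subunit of phosphorylase kinase, had -3.24, with 59.8 to 2233 in total RNA at 6 h. Aldolase (Aldoa) had 1.26 and the muscle enolase Eno3 1.03, both with polysomal arrays above total arrays.

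Slow-fibre genes had a median of -0.72 relative to all genes over 11 members, none of which passed, with polysomal arrays below total arrays in 5 and above in none. Myh7, the slow myosin heavy chain, read 8198, 8454, 7253 and 6839 in total RNA and 2401, 2412, 1881 and 2011 in polysomal RNA. Its difference of -1.82 ± 0.39 missed the threshold (adjusted p = 0.0611), and a second probe set gave -2.14. Atp2a2, the slow calcium pump, had -2.80, of which array 2a of polysomal RNA at 54.2 is part, and its 3 other probe sets gave -0.73 to 0.59. Casq2, the cardiac and slow calsequestrin, had -1.87. Without array 2a of polysomal RNA the median was -0.55, and with the beta-actin covariate -0.33. At 6 h the list had a median 0.02 above all genes, with 2 members lower and 1 higher by the test. Myh7 was among the lower, at -1.47 ± 0.28 (adjusted p = 0.00646, limma), and Atp2a2 had -1.43 and did not pass. No member passed the test of the difference between the times (smallest adjusted p = 0.849, limma). Fast-fibre genes lay at 0.09 over 15 members, and at -0.21 without array 2a of total RNA, with no member whose arrays separated: Myh4 had 0.05, Tnnt3 0.14, Casq1 0.05 and Atp2a1 1.33.

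**Figure D4:**
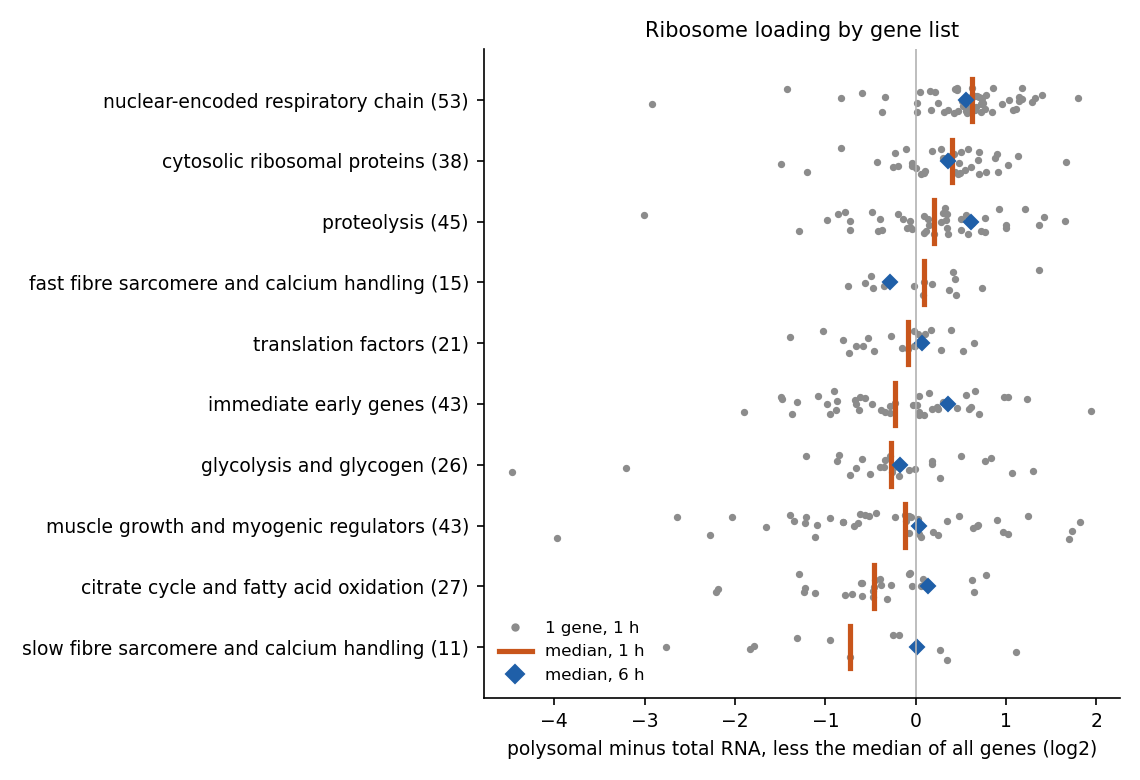
Loading difference at 1 h of each gene of 10 lists, less the median of all genes (grey points, log2), with the median of the list at 1 h (orange bar) and at 6 h (blue diamond); the number of tested genes is in brackets. Respiratory chain and ribosomal protein medians are above 0 at both times (0.63 and 0.55, 0.41 and 0.36), while slow-fibre and citrate cycle medians are -0.72 and -0.46 at 1 h and 0.02 and 0.14 at 6 h. No gene of these lists passed the test of the difference between the times.

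Growth and myogenic regulators, 43 tested, held the acetylcholine receptor subunits and ranged from -4.003 to 1.78. Only Chrna1 passed, and polysomal arrays lay below total arrays in 14 and above them in 8. The insulin-like growth factor binding proteins tested had 1.78 (Igfbp5), 1.66 (Igfbp3), 0.99 (Igfbp6) and -0.56 (Igfbp2). None passed, and another probe set of Igfbp5 gave -1.02. Igfbp3 read 187, 294, 130 and 225 in total RNA and 582, 725, 615 and 622 in polysomal RNA (adjusted p = 0.0818). Igf1 had 0.66, its receptor Igf1r -0.14 and the type 2 receptor Igf2r -2.07. Myostatin (Mstn), the inhibitor of muscle growth, read 610, 605, 503 and 398 in total RNA and 263, 140, 140 and 109 in polysomal RNA, a difference of -1.70 that did not pass (adjusted p = 0.101). Insulin receptor signalling genes Insr, Irs1 and Irs2 had -0.99, -0.67 and -1.15.

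Immediate early genes, the transcripts induced first by contraction, had a median of -0.22 relative to all genes and no member past the threshold among 43. Without polysomal number 2 the median turned to 0.15. The 2 numbers of polysomal RNA disagreed for the main inducible factors. Fos read 28698, 24514, 17203 and 17251 in total RNA and 37782, 26481, 3706 and 2507 in polysomal RNA. Egr1 read 54152, 46560, 7159 and 5797 and Atf3 18678, 17719, 1624 and 4832 in polysomal RNA, with total arrays of 21920 to 33644 and 8642 to 12853. In all 3 the polysomal arrays of number 2 were below every total array. Those of number 1 were above every total array for Egr1 and Atf3, and for Fos only 1 of them was. On the Muscle-Polysome arrays Fos ran from 881 to 2577 and Egr1 from 2294 to 4103. Members with arrays apart in 1 direction were Ccn1 (-1.94), Jun (-1.53), Zfp36 (-1.41) and Bhlhe40 (-0.92) on the low side, and Klf6 (1.90), Klf9 (1.19), Id3 (0.98), Nfkbia (0.94) and Dusp6 (0.66) on the high side.

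Rrad, Cd1d1, Fst, S100a9 and Rack1 were the genes whose loading differed most in sign between the numbers. Rrad, a small GTPase that restrains calcium channels, read 644, 460, 12814 and 9491 in polysomal RNA and 1111 to 1694 in total RNA. Fst, the myostatin-binding follistatin, had 2.61 in number 1 and -1.32 in number 2, where polysomal array 2a read 30.9 and array 2b 797, against 862 and 749 in total RNA. Cd1d1, a lipid-presenting surface protein, had -3.28 and 0.95. None had an adjusted p under 0.5. Over all genes 7 differed by more than 2-fold in opposite directions between the numbers.

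Proteolysis genes, which remove muscle protein through the proteasome and lysosome, had a median 0.20 above all genes, with polysomal arrays above total arrays in 11 of 45, below in 6, and none past the threshold. The median was 0.0018 without polysomal number 2, 0.0027 without total number 1 and 0.40 without polysomal number 1. The 2 highest members were Ube2g2, a ubiquitin-conjugating enzyme (1.62), and Psmb4, a proteasome subunit (1.38). Cathepsin C (Ctsc) was lowest, with 978 to 1253 in total RNA and all polysomal arrays below the floor, a difference of at least 8.27-fold (adjusted p = 0.125). Tfrc, the transferrin receptor whose message is stabilised by iron regulatory proteins, read 985 to 1817 in total RNA and 16.3 to 108, all below the floor, in polysomal RNA (at least 9.40-fold, adjusted p = 0.125). Of 36 extracellular matrix genes none passed, and polysomal arrays lay above total arrays in 5 and below them in 3. Dcn, a collagen-binding proteoglycan, and Lox, which cross-links collagen, had differences of 2.0 each and polysomal arrays above total arrays, and the 3 below were Lamc1 (-1.49), Col3a1 (-1.32) and Timp3 (-1.19). Medians of the heat shock, secretory pathway and polyamine lists were 0.03, 0.10 and 0.01 above all genes. Each changed sign in some of 23 alternatives with the brightest probe set (lowest -0.12, -0.15 and -0.32). With the mean over a gene's probe sets they were -0.27, -0.16 and 0.02. Hist1h2af (1.85) and Macroh2a1 (0.91) led the 5 histone genes tested, and the noncoding RNAs H19 and Gas5 had -0.57 and 0.17. The 3 tested transcripts of the mitochondrial genome, which are not translated on cytosolic polysomes, had 0.82 (COX3), 0.62 (COX1) and 0.18 (COX2). Array 2a of total RNA read 8364 for COX3 against 20091 to 25296 on the other total arrays. The median relative to all genes was 0.66, and ran from 0.12 without polysomal number 1 to 1.24 without total number 1.

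Markers of other cell types were measured in the same way. Bulk RNA cannot tell fewer cells of a type from less RNA per cell. Macrophage markers, 13 of 26 listed genes tested, summed to 8845 to 9936 in total RNA and 8663 to 18569 in polysomal RNA, with polysomal arrays above total arrays in 3 and below in 1, and Itgam was at the floor on all 8 arrays. Neutrophil markers (4 of 12) summed to 362 to 900 and 398 to 1839: S100a8 read 107 and 51.2 on the polysomal arrays of number 1 and 693 and 946 on those of number 2. Red cell markers (5 of 10) summed to 32362 to 55406 and 48626 to 60289. Endothelium and smooth muscle markers (14 of 21) summed to 17078 to 22514 and 21455 to 35847, with Tagln at 1.52 and Cav1 at -2.94. Adipocyte markers (9 of 13) summed to 13101 to 17067 and 9390 to 15106, and nerve markers (10 of 16) to 6051 to 9408 and 4988 to 6837. No member of these lists passed at 1 h, and the part of such cells in the loading differences was not tested.

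The 6 h arrays, of which none is shared, give the same comparison at a later time with 4 numbers per fraction. There 588 probe sets passed (8.77%), 253 higher (3.77%) and 335 lower (4.99%), and 366 genes (9.38%). With the common 75th percentile the split was 331 higher and 157 lower, and with quantile normalization 323 and 169. All 26 probe sets called at 1 h had the same direction at 6 h, and 19 of them passed there, which is 73.1% of the 26 and 3.23% of the 588. The tests at 1 h and 6 h use the same spread for each probe set. Passing at 6 h is therefore not independent of passing at 1 h, while the directions do not use that spread. With only the groups compared in the model 128 probe sets passed at 6 h, 122 of the 588 among them. Of the 253 higher at 6 h, 240 were above 0 at 1 h and 137 also had an unadjusted p under 0.05 in that direction; of the 335 lower, 296 and 102 did so. Over all 6707 probe sets 68.3% had the same direction at both times. At 1 h 6.32% of them were higher and 9.5% lower with an unadjusted p under 0.05.

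Loading differences at 6 h are set beside those at 1 h for the 13 genes. Rab14 had 2.44 ± 0.25 at 6 h, Wdfy1 1.91, Mtdh 1.47, Fstl1 1.38 and P3h4 1.19, and on the low side Aplp2 had -1.33, Sod3 -1.33, Supt5h -1.08 and Aco1 -0.88. Ppp3ca had 0.89 and Rala 0.73, and all 11 passed at 6 h, in the test that shares its spread with 1 h. Chrna1 had -0.04 ± 0.44 and Eloa -0.37, and neither passed. Respiratory chain genes that did not pass at 1 h did so at 6 h in 13 of 53, all higher, and ribosomal protein genes in 6 of 38, also all higher. Over all genes 4.36% passed as higher and 5.02% as lower at that time.

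**Figure D5:**
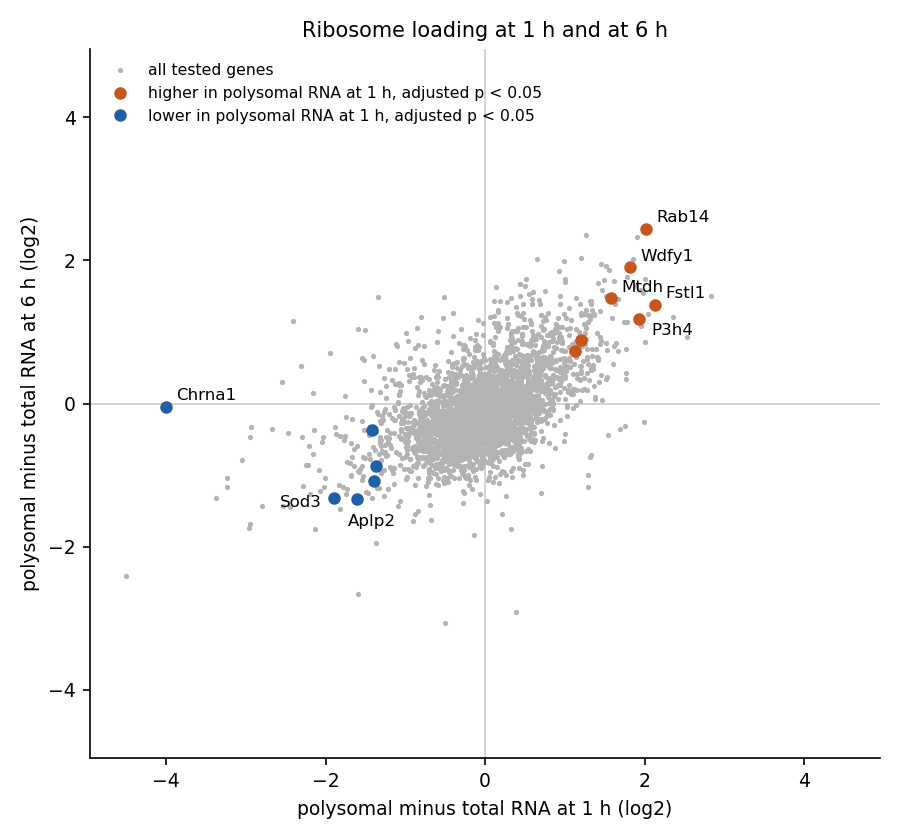
Loading difference (polysomal minus total RNA, log2) of each of the 3903 tested genes at 1 h on the horizontal axis and at 6 h on the vertical axis, with the genes that passed at 1 h in orange (higher) and blue (lower). Of the 13 coloured genes Chrna1 is the one near 0 at 6 h, at -0.04 against -4.003 at 1 h.

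No probe set passed the test of the difference between the times, in limma's interaction contrast, and 372 (5.55%) had an unadjusted p under 0.05. The smallest adjusted p was 0.417, shared by a probe set without a single symbol (-1.05 ± 0.20) and Chrna1, with a difference of -3.96 ± 0.77 between 1 h and 6 h. With arrays as observations (duplicateCorrelation) 2 probe sets passed, and with no filter on low signals 3. Among genes read from their brightest probe set, Tuba4a, Pcsk2, Ruvbl1 and Ghr came next by p. Their loading differences at 1 h and 6 h were 0.53 and -0.64, 0.45 and -0.63, -0.80 and 0.61, and 1.69 and -0.35. Pcsk2 lay near the floor of 130, with 87.3, 222, 96.6 and 125 in total RNA at 1 h. Its polysomal arrays at 6 h, 38.3 to 83.5, were all below the floor. Another probe set of Ghr gave -1.87 at 1 h. With total number 1 left out at 1 h 8 probe sets passed, with polysomal number 1 left out 14, and with total number 2 left out 1. Over genes the loading differences at 1 h and 6 h correlated at r = 0.53, at 0.62 with numbers 1 and 2 of 6 h and at 0.22 with its numbers 3 and 4. Number 3 of total RNA at 6 h correlated at only 0.815 to 0.83 with total RNA at 1 h, and number 4 at 0.923 to 0.953 with polysomal RNA of its own time. Leaving both out raised the 6 h calls to 1468, 458 of the 588 among them, and gave 2 calls for the difference between times.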

How the data were processed

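Expression was measured on 36 one-colour arrays of 8799 probe sets. The deposited values are intensities that the authors had already scaled, since their 2% trimmed means are 801 to 801.9 on the arrays, and the software and background step are not given in the sources used here. Deposited intensities were raised to a floor at their 40th percentile (129.5) and converted to log2, and the 2 arrays of a number were averaged. Of 8740 probe sets that are not controls, the 6707 that exceeded this floor on 4 or more arrays were tested. One limma model (limma 3.58.1, R 4.3.3) over 6 groups and 18 replicates, with 12 residual degrees of freedom, gave two-sided moderated tests, Benjamini-Hochberg adjusted over 6707 probe sets at 0.05. The number of arrays limits the precision. A gene is its brightest tested probe set, named through the platform annotation and Entrez: 7006 probe sets had 1 symbol, 308 several and 1426 none.

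Members and gene lists were chosen with earlier results of these data known. Genes were named by fixed counts of the highest, lowest and smallest-p genes per comparison and per list. Further list members were named after their values were seen. The model was tested on simulated data. Alternatives covered scaling, floor, filter, replicate handling, the spread model, the beta-actin ratio as a covariate and left-out arrays or numbers. List medians were also taken with the mean over a gene's probe sets in place of its brightest. A planned look at protein lengths was not run. Promoters are from RefSeq on GRCr8.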

Additional observations from a re-analysis of the deposited data

Results flagged for a closer look

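Within the 4 arrays of a fraction, 1 array could stand apart from the other 3 by more than Dixon's critical value of 0.829. It did so in 17 of 156 gene and fraction combinations (10.9%). Chance gives about 5% for independent values without a floor. These arrays are paired within a number and have a floor set under them, so the 10.9% cannot be read against the 5%. The value given is the gap to the nearest array over the whole range on the log2 scale. Among the 13 genes that passed at 1 h these were Chrna1, lowest in polysomal RNA (0.9326, array 2b), and Supt5h, highest in total RNA (0.8438, array 1a). In total RNA the others were Rpl35a (0.9589), Mbp (0.8906), Macroh2a1 (0.8902) and H19 (0.8543), each with 1 low array, and Ppp1r16b and Pcsk2 with 1 high array (1.0 each). In polysomal RNA 1 array was low for Rack1 (0.8843), Amd1 (0.8549), Atp2a2 (0.8373) and Slc11a2 (0.8331), and for Rack1, Amd1 and Atp2a2 it was array 2a, while for Slc11a2 it was array 2b. One polysomal array was high for Pfkfb3, Pik3c3, Cd36, Cav1 and Mbp (1.0 each). A value of 1.0 means that the other 3 arrays were at the floor, where any signal above it is flagged. No gene had fractions that separated in opposite directions at 1 h and 6 h.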

How the results depend on the processing

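With 2 numbers per fraction the calls at 1 h are few and depend on the spread borrowed from the other groups. All 13 genes kept their direction in all 23 alternatives with the same probe set. With arrays or numbers left out this was fixed beforehand, since the arrays of the fractions did not overlap in these genes. Most named genes that did not pass kept their direction in all alternatives too. Other probe sets of Fstl1 (-0.40) and Supt5h (0.95) gave the opposite sign, as did those of Add3 (-0.058) and Atp2a2 (0.59) among genes that did not pass. The 26 calls at 1 h became 9 with the floor at the 20th percentile, 16 with no floor, 45 with only the groups compared (3 of the 26 shared), 60 with the beta-actin ratio as covariate, 364 with arrays as observations, 42 without array 1a of total RNA and 69 without array 1a of polysomal RNA. Leaving out a number gave 1 to 85. The labels do not say that numbers pair the fractions. Deviations of same-numbered samples correlated at 0.20 at 1 h and at 0.07 to 0.25 at 6 h, and the replicate block gave 120 calls at 1 h, all 26 among them. At 6 h the 588 calls became 390 with no filter, 128 with only the groups compared, 1470 with the covariate, 247 to 1099 without a number, and 1468 without total numbers 3 and 4, an alternative chosen after seeing the data. The 0 calls for the difference between times became 3 with no filter, 2 with arrays as observations, 2 without total numbers 3 and 4, and 0 to 14 without a number. Slc11a2 turned to -0.19 with the covariate, -0.063 without array 1b of total RNA and -0.095 without array 2a of polysomal RNA, and Rack1 to 0.27 without that array. Without a number of polysomal RNA, values ran from -2.36 to 0.54 for Rack1, -0.10 to 0.16 for Slc11a2, -1.27 to 0.13 for H19, -0.17 to 0.50 for Gas5, -0.27 to 2.37 for S100a8 and -0.47 to 1.95 for S100a9, and without a number of total RNA from -1.04 to 0.089 for Hba-a3. The cause of these changes was not tested. With the mean over a gene's probe sets, 14 list medians moved by at least the standard deviation of the 2 numbers, and 14 did not. Small GTPases and antioxidant genes then had -0.06 each. Respiratory chain genes had 0.45, ribosomal proteins 0.31, the citrate cycle list -0.63 and slow-fibre genes -0.69. Over all named genes and alternatives 1566 values kept direction and side of the threshold, 122 newly passed, 109 no longer passed and 15 changed sign.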
